A study of Mus musculus with 12 samples.

Results

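The genes described are 9 costimulatory and adhesion molecules of the antigen-presenting cell surface, namely Cd40, Cd80, Cd86, Cd83, Cd274, Pdcd1lg2, Icosl, Icam1 and Slamf7. They were chosen by name, with no value of the count table used in the rule, though earlier results of these data were known. All 9 were found once each among the 48526 genes of the table, and all 9 passed the filter on low counts that kept 15523 genes. The lowest of them, Pdcd1lg2, passed with 4 to 51 counts per library, and only through its LPS libraries, since the other 8 passed when the UT libraries were filtered alone and it did not.

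A T cell that meets its antigen also reads a second set of signals from the cell that presents it. CD80 and CD86 bind the activating receptor CD28 and the inhibitory receptor CTLA-4, ICOS ligand (Icosl) binds ICOS, and PD-L1 (Cd274) and PD-L2 (Pdcd1lg2) bind the inhibitory receptor PD-1. CD40 is a receptor of the TNF receptor superfamily that is engaged by CD40 ligand on T cells. ICAM-1 is the ligand of the integrin LFA-1 and holds leukocytes together, SLAMF7 is a self-ligand receptor of the SLAM family, and CD83 is a surface glycoprotein of activated antigen-presenting cells that is linked to the retention of MHC class II and CD86. In macrophages several of these genes are known targets of NF-kappaB and of interferon signalling downstream of Toll-like receptor 4.

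Total RNA was measured in macrophages grown from mouse bone marrow (BMDMs) over 6 d, with L929-conditioned medium as the source of growth factor. The KO groups came from mice homozygous for HSS9 KO, a deletion upstream of Tnf in the enhancer that the study calls TNF-9, and the WT groups from HSS9+/+ controls. Cells received lipopolysaccharide (LPS), the bacterial ligand of Toll-like receptor 4, or PBS for 6 hr, and the PBS groups are called UT. Each of the 4 groups (UT and LPS of each genotype) held 3 libraries, and totals ranged from 26154533 to 36423921 counts per library. Mice of the study were males of 7 to 10 weeks. The labels call the controls littermates, whereas the methods describe purchased C57BL/6 mice and a KO colony bred as homozygous pairs, so a difference of genetic background between the genotypes cannot be told apart from the deletion. Whether the 3 libraries of a group came from separate mice was not given, and p-values then measure the spread between these libraries, which may be technical.

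Levels are given as CPM, the count scaled to library size in the usual per-million unit after TMM normalization (trimmed mean of M values), and differences as log2 fold changes. A gene passed a comparison when its Benjamini-Hochberg adjusted p from the quasi-likelihood test of edgeR, taken over all 15523 genes, was below 0.05. It was called when its absolute log2 fold change was also above 1, as in the methods of the study. The macrophage label was checked first. The 9 macrophage markers (Adgre1, Csf1r, Cd68, Lyz2 and others) summed to between 28243.7 and 34555.1 CPM in every library. The B cell markers summed to at most 1.792 CPM and those of neutrophils to between 20.45 and 79.61 CPM, with more in KO UT than in WT UT. Tnf, the gene that the deleted enhancer is named for, averaged 15.32 CPM in WT UT, 9.711 in KO UT, 889.7 in WT LPS and 432.0 in KO LPS. Small structured RNAs took a share of all counts that differed between groups, at 3.00 to 3.25% in WT UT, 6.64 to 7.98% in KO UT, 4.04 to 6.89% in WT LPS and 3.23 to 3.43% in KO LPS.

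The promoter sequences of 5 genes are shown because they place Cd80, which did not pass with LPS, beside 4 genes that rose with it. The RefSeq table (GRCm38.p6) held a promoter for 6 of the 9 genes, those of Cd80, Cd274, Pdcd1lg2, Icosl, Icam1 and Slamf7. Each promoter was 300 bases long, with 250 bases before the start and 50 from it on. Both strands were searched for the kappaB consensus, the interferon-stimulated response element (ISRE), the GAS element, the AP-1 site and the TATA box. Capitals mark the matches in the stretches of 100 bases below, which are written 5′ to 3′ on the strand of the gene. Those of Cd80 (chr16:38458833-38458932, plus strand), Slamf7 (chr1:171649000-171649099, minus strand), Icam1 (chr9:21015840-21015939, plus strand) and Cd274 (chr19:29367338-29367437, plus strand) end at the base before the RefSeq start, which for Cd80 and Slamf7 lies inside the gene span of the GENCODE annotation. That of Pdcd1lg2 (chr19:29410669-29410768, plus strand) begins 250 bases before the start, where its match lies.
Cd80: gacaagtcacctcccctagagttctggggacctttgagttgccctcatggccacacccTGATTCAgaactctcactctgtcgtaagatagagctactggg
Slamf7: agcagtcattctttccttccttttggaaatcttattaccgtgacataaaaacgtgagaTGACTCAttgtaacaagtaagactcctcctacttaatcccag
Icam1: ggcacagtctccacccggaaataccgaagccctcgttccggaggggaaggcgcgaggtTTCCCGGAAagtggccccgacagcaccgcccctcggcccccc
Cd274: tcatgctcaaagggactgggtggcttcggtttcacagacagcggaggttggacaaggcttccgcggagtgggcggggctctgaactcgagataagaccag
Pdcd1lg2: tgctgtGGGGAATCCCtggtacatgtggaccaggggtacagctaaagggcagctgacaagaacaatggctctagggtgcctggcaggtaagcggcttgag

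Only Cd80 of the 6 promoters belongs to a gene that did not pass with LPS, so the matches are given gene by gene. An AP-1 match (TGANTCA) began 42 bases before the RefSeq start of both Cd80, which did not pass with LPS, and Slamf7, which rose with LPS. Of all 32851 promoters, 7.81% held an AP-1 match. The Icam1 promoter held a GAS match (TTCNNNGAA), also 42 bases before the start, as did 8.30% of all promoters. A kappaB match was found in Pdcd1lg2, 244 bases before the start, and in Icosl, 111 bases before it, against 8.46% of all promoters. TATA matches (TATAAA) lay just after the RefSeq start of Icam1 and Cd80, and 13.6% of promoters held one. The GENCODE start of Icam1, at 21015985, lies beyond its RefSeq start, so its distances hold for the RefSeq start only. The Cd274 promoter held none of the 5 motifs, and no ISRE match was found in the 6 promoters, against 3.44% of all promoters. A match is only a run of letters in this window and does not show binding.

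Cd274 and Pdcd1lg2 are neighbours on chromosome 19, at 29367455 to 29388095 and 29410919 to 29471161, both on the plus strand, with 22.8 kb and no protein-coding gene between them. Cd86 (36603869 to 36666081, minus strand) and Cd80 (38455561 to 38496335, plus strand) lie on chromosome 16, 1789.5 kb apart with 25 protein-coding genes between them. Cd40 lies on chromosome 2 (165055627 to 165072948), Cd83 on chromosome 13 (43784775 to 43803132), Icosl on chromosome 10 (78069302 to 78083913), Icam1 on chromosome 9 (21015985 to 21028817) and Slamf7 on chromosome 1 (171632403 to 171653035). The genes Cd274, Pdcd1lg2, Icam1 and Slamf7 each overlap another gene on the opposite strand in the annotation. The strand setting of the counting was not given, so reads of such a pair could have been mixed. The antisense gene A930007I19Rik, which overlaps Pdcd1lg2 with no shared exon base, had more counts than Pdcd1lg2 in every library, for example 248, 184 and 192 in WT LPS. Gm37787 shares 423 exon bases with Slamf7 and had at most 12 counts in a library. AC119228.1 shares 511 exon bases with Cd274, and Gm47079 shares 511 with Icam1, but no counts were available for either.

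Without stimulation the surface genes differed widely in level. Compared per kilobase of exon, the order in WT UT was led by Cd83 at 49.31 ± 0.6668 CPM per kb (SD, n = 3) and Slamf7 at 45.99 ± 0.1668. Cd274 followed at 19.08 ± 0.6834, Icam1 at 11.84 ± 0.9714 and Cd86 at 5.17 ± 0.1047. Icosl (2.23 ± 0.05237), Cd40 (1.981 ± 0.05987) and Cd80 (1.875 ± 0.09461) were close together, and the libraries of Cd40 and Cd80 overlapped. Pdcd1lg2 was lowest at 0.1292 ± 0.03397 CPM per kb. In KO UT the order was the same except that Cd40 (2.533 CPM per kb) stood above Icosl (1.77). After LPS the order in WT became Cd40 (442.4 ± 19.84), Cd274 (364 ± 16.27), Slamf7 (269.6 ± 9.13) and Icam1 (161.2 ± 4.494). Cd86 (51.87 ± 3.004) and Cd83 (49.77 ± 1.941) then overlapped, ahead of Icosl (5.862 ± 0.715), Cd80 (1.944 ± 0.1064) and Pdcd1lg2 (0.8946 ± 0.08553). In KO LPS the same genes stood in the same places, at 444.9 ± 17.48 for Cd40, 334.1 ± 3.911 for Cd274 and 231.1 ± 9.474 for Slamf7.

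**Figure D1:**
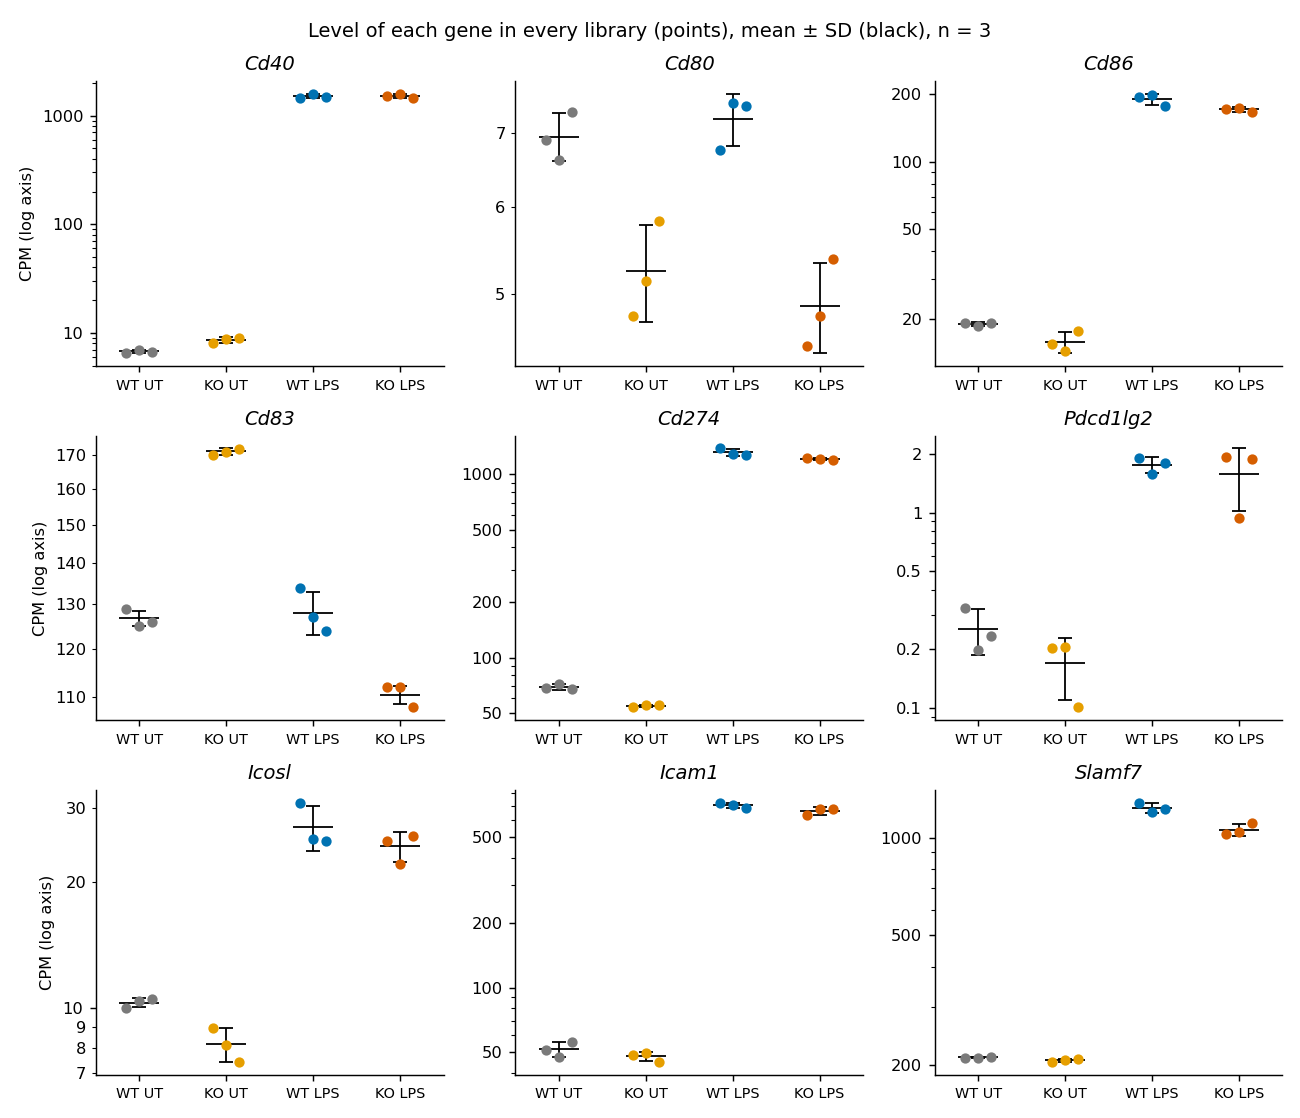
Level of each of the 9 genes in CPM (log axis, its range set for each gene) in the 3 libraries of each group, UT then LPS; points are libraries and black bars the mean ± SD. In 7 panels the LPS libraries lie far above the UT libraries, from 6.57 to 9 CPM up to 1448 to 1581 CPM for Cd40, while the panels of Cd80 and Cd83 separate KO from WT libraries.

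The first comparison asked how the surface genes responded to LPS in WT cells. Of the 9 genes, 7 were called, all higher, where 19.1% of all genes tested were called higher. They were Cd40, Cd274, Icam1, Cd86, Pdcd1lg2, Slamf7 and Icosl, of which Pdcd1lg2 entered the test only through its high LPS libraries. Without it 6 of 8 were called. In each of these 7 the 3 LPS libraries lay above the 3 UT libraries, as they did for 38.5% of all genes. In KO cells the same 7 genes were called higher, where 17.7% of all genes were, and Cd83 fell, as 37.7% of all genes did. Because these are bulk libraries, a change in the number of cells that carry a transcript cannot be told apart from a change in RNA per cell.

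Cd40, the receptor for CD40 ligand, had the largest rise of the 9. It stood at 6.57, 6.97 and 6.7 CPM in WT UT and at 1448, 1581 and 1492 CPM in WT LPS. In KO cells it went from 8.01, 8.87 and 9 CPM to 1528, 1567 and 1450 CPM. No UT library came near an LPS library, and the LPS libraries of the genotypes overlapped. The log2 fold change was 7.80 ± 0.0734 (SE) in WT (edgeR adjusted p = 6.58e-26), a 223.1-fold rise, and 7.45 ± 0.0724 in KO (6.77e-26), a 175.4-fold rise. Ranked by log2 fold change, Cd40 was number 82 from the top of 15523 genes in WT and number 95 in KO.

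The ligands of CD28 and CTLA-4 parted. Cd86 was at 19.1, 18.5 and 19.2 CPM in WT UT and at 194, 198 and 177 CPM in WT LPS. In KO it was at 15.4, 14.3 and 17.7 CPM without LPS and at 173, 174 and 167 CPM with it. Its UT and LPS libraries did not overlap, with log2 fold changes of 3.33 ± 0.0708 in WT (edgeR adjusted p = 1.64e-20) and 3.44 ± 0.0725 in KO (1.25e-20). Cd80, which binds the same receptors, was at 6.9, 6.62 and 7.32 CPM in WT UT and at 6.75, 7.45 and 7.4 CPM in WT LPS. In KO it was at 4.77, 5.14 and 5.82 CPM without LPS and at 4.48, 4.77 and 5.38 CPM with it. The UT and LPS libraries of Cd80 overlapped in both genotypes, and its log2 fold changes of 0.05 (95% interval -0.20 to 0.30, edgeR adjusted p = 0.719) and -0.11 (-0.37 to 0.16, 0.461) did not pass. These intervals exclude a rise of the size seen for Cd86. In KO, Cd80 passed as lower with LPS under upper-quartile scaling (-0.29, 0.0434) and library totals (-0.61, 1.58e-04), and in WT under library totals (-0.62, 7.57e-05), where the medians of all genes were -0.24, -0.56 and -0.62. Per kilobase, Cd86 RNA exceeded Cd80 RNA by a ratio of 2.759 ± 0.0914 (SD over 3 libraries) in WT UT and 26.75 ± 2.406 in WT LPS, and by 3.046 ± 0.2211 and 35.77 ± 3.928 in KO.

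Both ligands of PD-1 were higher with LPS, at levels far apart. Cd274, which encodes PD-L1, was at 67.9, 71.9 and 67.4 CPM in WT UT and at 1386, 1290 and 1278 CPM in WT LPS. In KO it was at 53.5, 54.8 and 54.8 CPM and at 1225, 1207 and 1197 CPM. No UT library came near an LPS library, and the log2 fold changes were 4.25 ± 0.0564 in WT (edgeR adjusted p = 7.80e-24) and 4.48 ± 0.0573 in KO (4.38e-24). Pdcd1lg2, which encodes PD-L2, had 14, 9 and 11 counts in WT UT, 7, 7 and 4 in KO UT, 51, 35 and 38 in WT LPS and 50, 25 and 51 in KO LPS. Its LPS libraries were all above its UT libraries, and its log2 fold changes of 2.78 ± 0.3808 and 3.20 ± 0.4185 had far wider standard errors than those of Cd274 and are a description, given how it passed the filter. Per kilobase, Cd274 exceeded its neighbour Pdcd1lg2 by a ratio of 154.9 ± 42.0 in WT UT and 408.6 ± 31.5 in WT LPS.

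Icosl, the ligand of ICOS, had the smallest rise that was called. It was at 10, 10.4 and 10.5 CPM in WT UT, 8.93, 8.17 and 7.43 CPM in KO UT, 30.9, 25.3 and 25.1 CPM in WT LPS and 25.1, 22.1 and 25.8 CPM in KO LPS. The UT and LPS libraries did not overlap, with log2 fold changes of 1.40 ± 0.0946 in WT (edgeR adjusted p = 1.40e-11) and 1.57 ± 0.0984 in KO (3.46e-12). With scaling by library totals alone, chosen after the TMM factors had been seen to differ by treatment, the log2 fold change of Icosl in WT was 0.73 and no longer above 1, where the median over all genes was -0.62.

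Icam1, the ligand of LFA-1, was at 51.2, 47.6 and 56 CPM in WT UT, 48.8, 49.6 and 45.1 CPM in KO UT, 719, 709 and 681 CPM in WT LPS and 634, 680 and 678 CPM in KO LPS. Its log2 fold changes of 3.77 ± 0.0675 in WT (edgeR adjusted p = 8.37e-22) and 3.79 ± 0.0679 in KO (7.78e-22) were the closest between genotypes of the 7 called genes, with an interaction of 0.03 (95% interval -0.15 to 0.21). Slamf7 was already high without LPS, at 210, 210 and 211 CPM in WT and 204, 206 and 208 CPM in KO. It rose to 1279, 1196 and 1227 CPM in WT and to 1028, 1038 and 1108 CPM in KO, so that every WT LPS library lay above every KO LPS library. The log2 fold changes were 2.55 ± 0.0512 (5.73e-21) and 2.36 ± 0.0509 (1.85e-20).

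Cd83 responded in KO and not detectably in WT. It was at 129, 125 and 126 CPM in WT UT and at 134, 127 and 124 CPM in WT LPS, which overlapped. In KO it was at 170, 171 and 172 CPM without LPS and at 112, 112 and 108 CPM with it, which did not overlap. The log2 fold change was 0.01 in WT (95% interval -0.09 to 0.12, edgeR adjusted p = 0.817), and -0.17 with upper-quartile scaling and -0.65 with library totals, each of which passed, where the medians over all genes were -0.14 and -0.62. In KO, Cd83 fell by 0.63 on the log2 scale (SE 0.0513, edgeR adjusted p = 3.10e-10), and it was lower under each scaling.

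**Figure D2:**
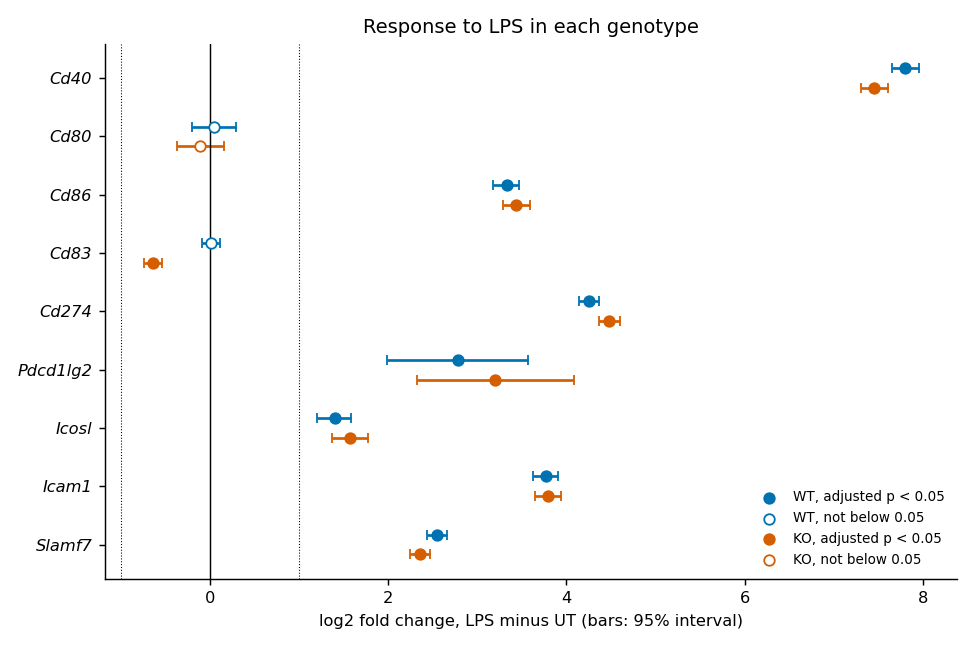
Log2 fold change with LPS of each gene in WT (blue) and KO (orange), with bars for the 95% interval, filled points for an adjusted p below 0.05 and dotted lines at the fold minimum of 1 on the log2 scale. Cd40 lies far to the right at 7.80 and 7.45, 6 more genes lie above 1 in both genotypes, Cd80 lies at 0.05 in WT and -0.11 in KO with intervals that include 0, and Cd83 lies at 0.01 in WT and at -0.63 in KO.

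The second comparison asked what differed between KO and WT without LPS. No surface gene was called by edgeR or DESeq2, where 1.82% of all genes were, and none had a log2 fold change above 1 in size at an unadjusted p below 0.05. At smaller folds 6 of the 9 passed in edgeR, where 23.8% of all genes did, and 7 in DESeq2. Cd83 and Cd40 were higher in KO, as 14.1% of all genes were, and Cd80, Cd86, Cd274 and Icosl were lower, as 9.69% were. Between the genotypes 2 genes had all KO UT libraries above all WT UT libraries and 5 had all of them below, where 21.6% and 19.1% of all genes did. The median log2 fold change of the 9 genes was -0.26, against 0.00 over all genes.

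Cd83 had the largest of these differences with a small error, at 170 to 172 CPM in KO UT against 125 to 129 CPM in WT UT. Its log2 fold change was 0.43 ± 0.0507 (edgeR adjusted p = 2.55e-06), and it was 0.40, 0.45 and 0.45 within the 3 batches. Cd40 was higher in KO by 0.36 ± 0.0698 (6.26e-04) and by 0.29, 0.35 and 0.43 within batches. Both were thus higher in 3 of 3 batches, as any pairing would give, since all their KO UT libraries lay above all WT UT libraries.

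Cd274 was lower in KO UT (-0.35 ± 0.0513, edgeR adjusted p = 3.32e-05), and by -0.34, -0.39 and -0.30 within batches. Cd80 was lower by -0.40 ± 0.117 (0.0146), Icosl by -0.34 ± 0.1003 (0.0175) and Cd86 by -0.26 ± 0.0727 (0.0114). Each was lower in 3 of 3 batches, as any pairing would give, since all KO UT libraries of these genes lay below all WT UT libraries. These 3 were close to the threshold. Cd80 no longer passed without WT UT replicate 3 (adjusted p = 0.065), KO UT replicate 1 (0.0807) or KO UT replicate 2 (0.0527). Icosl no longer passed without WT UT replicate 2 (0.0503), WT UT replicate 3 (0.0567), KO UT replicate 2 (0.0502) or KO UT replicate 3 (0.0952), and Cd86 without KO UT replicate 1 (0.0527) or KO UT replicate 2 (0.0954). Slamf7 (-0.03, 95% interval -0.13 to 0.07), Icam1 (-0.11, -0.24 to 0.02) and Pdcd1lg2 (-0.58, -1.60 to 0.43) did not pass, and the few counts of Pdcd1lg2 left a wide interval. Icam1 passed as lower with DESeq2 (-0.18, adjusted p = 0.0205), with RLE scaling (-0.18, 0.0326) and with library totals (-0.26, 0.00263), and Slamf7 with library totals (-0.18, 0.0068).

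The share of small structured RNA was higher in KO UT than in WT UT, so the fit was repeated with this share as a covariate. Only Cd83 then passed of the 9 genes, at 0.58 on the log2 scale (edgeR adjusted p = 0.00233). Cd40 was at 0.30 (0.169), Cd80 at -0.39 (0.626), Cd274 at -0.17 (0.395), Cd86 at -0.01 (0.988) and Icosl at 0.06 (0.934), the last with its direction turned. The share moved with genotype, and the standard errors rose with it, for Cd80 from 0.117 to 0.3553.

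**Figure D3:**
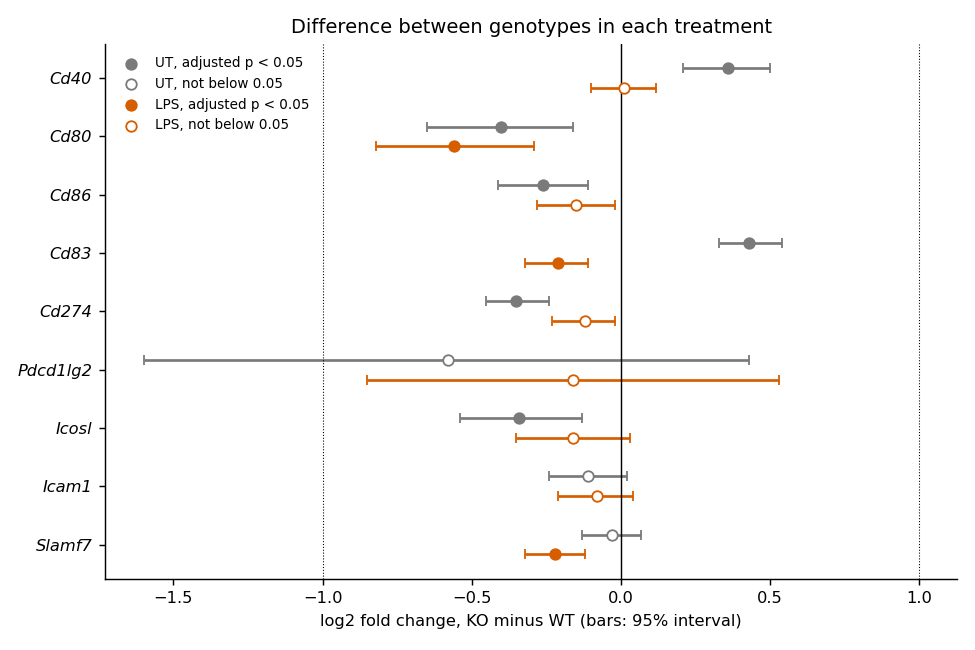
Log2 fold change of KO against WT for each gene without LPS (grey) and after LPS (orange), with bars for the 95% interval, filled points for an adjusted p below 0.05 and dotted lines at a fold minimum of 1 on the log2 scale. All points lie between the dotted lines, Cd80 lies below 0 in both treatments, and Cd83 lies at 0.43 without LPS and at -0.21 after it.

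The third comparison asked what differed between KO and WT after LPS. Again no surface gene was called by edgeR or DESeq2, where 1.25% of all genes were, and none reached that fold at an unadjusted p below 0.05. The threshold on p alone was passed by 3 of the 9 in either tool, where 14.3% of all genes passed. All 3, Cd80, Cd83 and Slamf7, were lower in KO, as 6.54% of all genes were. All KO LPS libraries lay below all WT LPS libraries in 6 of the 9 genes, where 14.9% of all genes did so, and 8 of the 9 log2 fold changes were negative. The median was -0.16, against -0.01 over all genes.

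Cd80 had the largest difference, at 4.48, 4.77 and 5.38 CPM in KO LPS against 6.75, 7.45 and 7.4 CPM in WT LPS. Its log2 fold change was -0.56 ± 0.1276 (edgeR adjusted p = 0.0056) and -0.59, -0.64 and -0.46 within batches, and it passed in each fit without 1 library. Cd80 was the only one of the 9 that passed as lower both without and after LPS, as 1.89% of all genes did. Slamf7 was lower by -0.22 ± 0.0482 (0.00385), and by -0.31, -0.20 and -0.15 within batches. Cd83 was lower by -0.21 ± 0.0517 (0.00845), and by -0.26, -0.18 and -0.19 within batches. Cd83 was thus higher in KO without LPS and lower in KO after LPS, a pattern of passing in both that 0.651% of all genes shared. Of the 3 genes only Cd83 failed to pass with no filter on low counts (-0.19, adjusted p = 0.0612), and only Cd80 failed with the small RNA covariate (-0.56, 0.113).

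**Figure D4:**
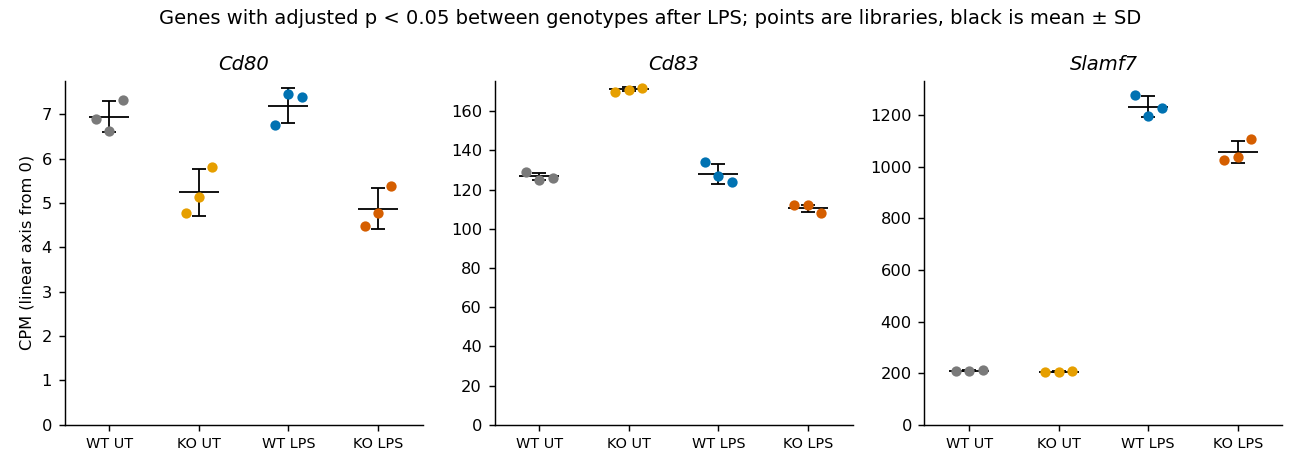
CPM (linear axis from 0) of the 3 genes that passed between genotypes after LPS, in the 3 libraries of each group, with the mean ± SD in black. Cd80 lies lower in KO with and without LPS, Cd83 is highest in KO UT (170 to 172 CPM) and lowest in KO LPS (108 to 112 CPM), and the KO libraries of Slamf7 lie below the WT libraries by a small gap in UT (204 to 208 against 210 to 211 CPM) and a wider one in LPS (1028 to 1108 against 1196 to 1279 CPM).

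The other 6 genes did not pass after LPS. Cd40 was at 0.01 (95% interval -0.10 to 0.12, edgeR adjusted p = 0.941), so that a difference of more than 0.12 on the log2 scale lay outside its interval. Cd274 was at -0.12 (-0.23 to -0.02, 0.0977), Cd86 at -0.15 (-0.28 to -0.02, 0.122), Icosl at -0.16 (-0.35 to 0.03, 0.272), Icam1 at -0.08 (-0.21 to 0.04, 0.391) and Pdcd1lg2 at -0.16 (-0.85 to 0.53, 0.803). Cd86 passed without WT LPS replicate 3 (-0.19, 0.0438), and Cd86 (-0.18, 0.0383) and Cd274 (-0.16, 0.0223) passed when only protein-coding genes were fitted. Both also passed with the small RNA covariate, at -0.28 (0.0273) and -0.22 (0.015). Cd274 passed as well with upper-quartile scaling (-0.15, 0.0322) and with a filter at a mean of 1 CPM (-0.14, 0.0461).

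The fourth comparison asked whether the response to LPS itself differed between genotypes, as the interaction of genotype and treatment. Of the 9 genes 3 passed, where 16.8% of all genes did, and none was called by edgeR or DESeq2 or reached the fold at an unadjusted p below 0.05, where 2.16% were called. Cd83 had an interaction of -0.65 ± 0.0724 (edgeR adjusted p = 5.92e-06), the difference between a WT response of 0.01 and a KO response of -0.63, and it was -0.66, -0.64 and -0.64 within batches. It kept its direction and passed in each alternative tried, also with the small RNA covariate (-0.86, 0.00604). Cd40 had an interaction of -0.35 ± 0.0873 (0.00841), which came with a higher KO level without LPS (8.628 ± 0.5396 against 6.748 ± 0.2039 CPM) and like levels after it (1515.4 ± 59.54 against 1506.9 ± 67.59 CPM). It did not pass with the small RNA covariate (-0.26, 0.548) or with library totals (-0.19, 0.13).

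Cd274 had an interaction of 0.22 ± 0.0709 (edgeR adjusted p = 0.0354), with lower KO levels before LPS (54.37 ± 0.7588 against 69.1 ± 2.475 CPM) and after it (1210.0 ± 14.17 against 1318.3 ± 58.93 CPM). It was 0.17, 0.30 and 0.20 within batches, but the adjusted p was 0.0663 with the replicate block and 0.0682 with protein-coding genes only. It was also above 0.05 without WT UT replicate 1 or 2, KO UT replicate 1 or 2, WT LPS replicate 2 or 3, or any KO LPS replicate, at 0.0504 to 0.108. With the small RNA covariate the interaction of Cd274 was -0.05 (0.922). Slamf7 did not pass (-0.19, 95% interval -0.33 to -0.05, 0.061), and it passed with upper-quartile scaling (-0.19, 0.0361), a filter at a mean of 1 CPM (-0.21, 0.0262), protein-coding genes only (-0.23, 0.0139) or without KO LPS replicate 3 (-0.23, 0.0406). The intervals of Cd80 (-0.52 to 0.21), Cd86 (-0.09 to 0.31), Icosl (-0.11 to 0.46) and Pdcd1lg2 (-0.79 to 1.64) included 0.

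**Figure D5:**
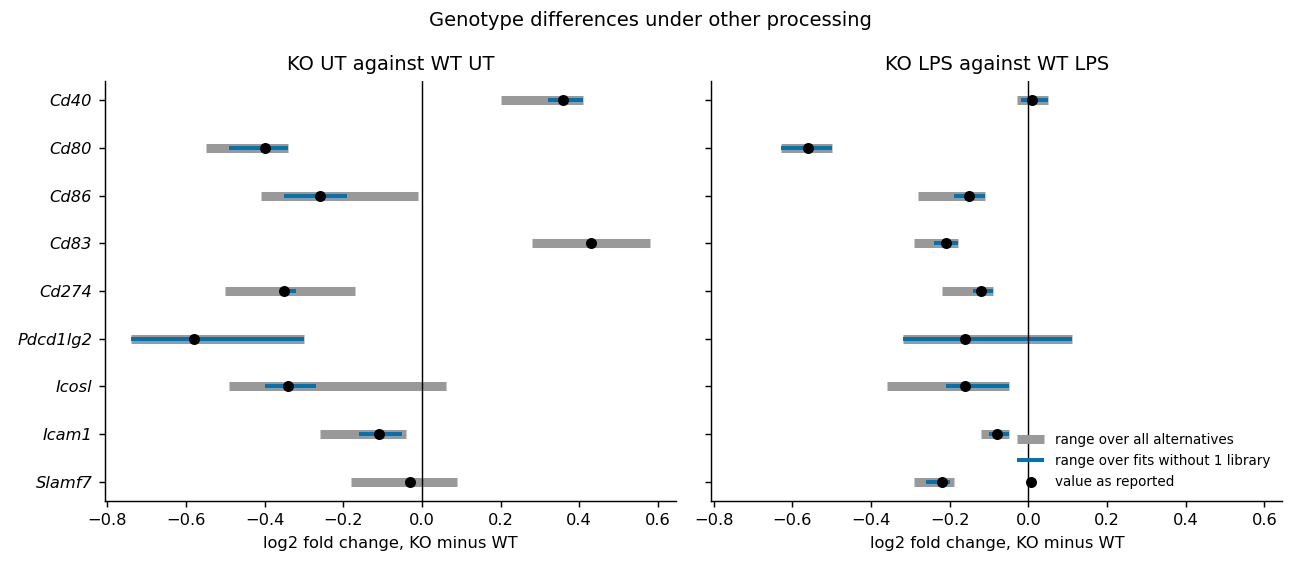
Log2 fold change of KO against WT for each gene without LPS (left) and after LPS (right); the black point is the value as reported, the blue bar the range over fits without 1 library and the grey bar the range over all alternatives. The bars of Cd80 and Cd83 stay on one side of 0 in both panels, while those of Icosl and Slamf7 without LPS and of Cd40 and Pdcd1lg2 after LPS cross it.

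Markers of other cell types moved with some of these groups, and their part in the results above was not tested. The 11 dendritic cell markers summed to 11.42 to 13.89 CPM in WT UT, 11.63 to 13.48 in KO UT, 16.84 to 20.46 in WT LPS and 18.04 to 19.74 in KO LPS. None of the 10 that were tested passed between the genotypes by edgeR, with 1 without LPS and 3 after it at an unadjusted p below 0.05, and Xcr1 was at 0 in WT UT and Siglech in WT LPS. The largest part of the dendritic cell sum was Ccr7, which averaged 6.46 CPM in WT UT and 11.02 in WT LPS, followed by Kmo (2.134 and 3.699). Members also went the other way, among them Batf3 (0.702 and 0.2056), Cd209a (1.074 and 0.3301) and Dpp4 (0.732 and 0.2363). The 8 neutrophil markers summed to 20.45 to 22.01 CPM in WT UT, 42.64 to 48.12 in KO UT, 50.5 to 79.61 in WT LPS and 67.28 to 76.77 in KO LPS. Of the 6 that were tested 4 were called higher in KO UT, namely Mpo, Camp, S100a8 and S100a9, while Ly6g was at 0 counts in every library. With LPS most of the neutrophil sum was S100a8, which averaged 7.318 CPM in WT UT and 52.73 in WT LPS, and Camp rose as well (0.2063 and 4.019). Members also went the other way, namely S100a9 (10.99 and 6.081), Ltf (1.824 and 0.2056) and Ngp (0.5869 and 0.1921). The 8 T and NK cell markers summed to 2.058 to 9.423 CPM over all libraries, lowest in WT UT (2.058 to 3.062) and highest in KO LPS (7.282 to 9.423). With LPS most of this sum was Lck, which averaged 0.1451 CPM in WT UT, 0.1839 in KO UT, 6.925 in WT LPS and 7.121 in KO LPS. Cd4 went the other way, from 1.925 CPM in WT UT to 0.4569 in WT LPS. Cd3e, Cd3d, Cd3g, Cd8a and Ncr1 were at 0 in WT LPS. The 8 stromal and endothelial markers summed to 39.18 to 42.59 CPM in WT UT, 27.29 to 31.78 in KO UT, 97.85 to 124.9 in WT LPS and 89.76 to 99.28 in KO LPS. Most of this sum was Kdr, which was lower in KO without LPS (-0.57, edgeR adjusted p = 1.06e-05) and after it (-0.33, 0.00354), while Dcn, Col3a1, Col1a1 and Col1a2 were called higher in KO LPS than in WT LPS. The 9 macrophage markers summed to 29029.1 to 30104.0 CPM in WT UT and 33440.2 to 34555.1 in KO UT, and 5 of them passed as higher in KO UT and 1 as lower. After LPS they summed to 28243.7 to 29787.0 CPM in WT and 30547.6 to 32421.8 in KO, and 5 passed as higher in KO and 0 as lower.

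Genes that share a pathway with the surface molecules give a frame for these values. Over all genes 19.1% were called higher and 18.7% lower with LPS in WT, and 17.7% and 19.3% in KO, while 38.0% and 35.3% passed in WT and 35.1% and 37.7% in KO. Between genotypes 14.1% passed as higher and 9.69% as lower in KO without LPS, and 7.78% and 6.54% after it. Btla, Jam2 and Tnfsf4 passed the filter only through the LPS libraries and Itgad only through the UT libraries, so they had to differ with LPS, and the counts of genes called with LPS below include them. Of the 13 listed B7 family genes and receptors 12 were matched and 5 tested. With LPS in WT 2 of the 5 were called higher (Btla and Tnfrsf14, which bind each other) and 2 lower, and in KO Cd276 was called lower as well (in WT it passed at -0.96 ± 0.2015). Cd28, the receptor of CD80 and CD86 that is best known from T cells, was detected here at 135.6 CPM in WT UT and 1.962 CPM in WT LPS, and its log2 fold changes with LPS were -6.10 ± 0.1049 in WT and -6.07 ± 0.1051 in KO. Vsir, an inhibitory B7 relative, fell as well, at -2.63 and -2.58. Btla rose by 4.48 ± 0.3039 and 3.99 ± 0.2917 and Tnfrsf14 by 1.61 ± 0.0575 and 1.95 ± 0.0587. Without LPS Tnfrsf14 (-0.32) and Cd28 (-0.21) were lower in KO. Vsir was higher in KO both without LPS (0.15, edgeR adjusted p = 0.0364) and after it (0.19, 0.0193).

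The SLAM family, to which Slamf7 belongs, had 9 of 11 genes tested. With LPS 4 were called higher in each genotype (Slamf1, Slamf9, Slamf6 and Slamf8) and 2 lower (Cd84 and Sh2d1b1, an adaptor of SLAM receptors). Slamf1 had 7, 17 and 11 counts in WT UT and 850, 747 and 650 in WT LPS, a log2 fold change of 6.93 ± 0.1515, against 5.96 ± 0.1469 in KO. Sh2d1b1 was at -3.36 in WT and -3.20 in KO, and Cd84 at -1.37 and -1.51. Slamf6 rose by 3.24 ± 0.2454 and 2.98 ± 0.2263. Slamf9 was higher in KO than in WT after LPS, at 218.9 against 140.2 CPM, a log2 difference of 0.64 ± 0.0544 (edgeR adjusted p = 7.68e-08), while Slamf7 was lower. Without LPS 4 of the 9 were higher in KO, namely Slamf8 (0.43 ± 0.0865, 7.52e-04), Cd48 (0.33, 7.90e-05), Slamf9 (0.23, 0.0112) and Cd84 (0.13, 0.049), and Sh2d1b1 was lower (-0.58 ± 0.0862, 3.30e-05).

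Of 19 leukocyte adhesion genes 18 were tested, and with LPS 9 were called higher and 1 lower in each genotype. Vcam1, the endothelial and macrophage ligand of the integrin VLA-4, rose by 5.34 ± 0.1444 in WT and 5.65 ± 0.1481 in KO. Jam2 had 6, 1 and 11 counts in WT UT, 2, 1 and 0 in KO UT and 26 to 52 in the LPS libraries, so that its higher level with LPS is given as counts. Itgad (-1.36 ± 0.5608) was called lower in WT, at 15, 17 and 18 counts without LPS and 4, 3 and 3 with it, and Icam2 (-1.10 ± 0.1602) in KO. Itgal, the alpha chain of LFA-1 and so of the receptor of ICAM-1, was at 116.4 CPM in WT UT, 64.82 in KO UT, 643.2 in WT LPS and 639.2 in KO LPS. Its rise with LPS was 2.47 ± 0.0535 in WT and 3.30 ± 0.0558 in KO. Icam1 itself did not pass between genotypes in either treatment by edgeR with TMM scaling.

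Between genotypes F11r, a junctional adhesion molecule, was called lower in KO UT (-1.04 ± 0.0975, edgeR adjusted p = 1.60e-07) and was lower after LPS (-0.50 ± 0.0761, 1.55e-04). Itgb7, an integrin beta chain, was lower in KO both without LPS (-0.86, 8.66e-10) and after it (-0.78 ± 0.0579, 1.14e-08). Over the list 3 of 18 passed as higher and 5 as lower without LPS, and 4 and 2 after it.

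Of the 12 genes of CD40 signalling 11 were tested, 10 of which passed as higher with LPS in each genotype, and 1, Map3k14, was called lower (-1.26 ± 0.0791 in WT and -1.09 ± 0.0771 in KO). Those called higher were Traf1, Nfkb2, Traf2, Relb, Birc3 and Traf5, whose products act downstream of CD40. Traf1 rose from 21.62 to 387.7 CPM in WT, by 4.16 ± 0.0619 on the log2 scale, and by 4.32 ± 0.0634 in KO. Nfkb2 rose by 2.98 ± 0.0659 and 2.72 ± 0.0655, and Traf2 by 2.52 ± 0.0645 and 2.45 ± 0.0653. None of the 11 passed as higher in KO by edgeR, with 0 without LPS and 1 after it higher at an unadjusted p below 0.05. Traf1 was lower in KO both without LPS (-0.39 ± 0.061, edgeR adjusted p = 5.95e-05) and after it (-0.24 ± 0.0534, 0.00485), Traf3 without LPS (-0.23 ± 0.0621, 0.00881) and Nfkb2 after LPS (-0.26 ± 0.0607, 0.00668).

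Of the 7 listed TNF superfamily costimulators 5 were tested, and with LPS 4 were called higher and 1 lower in both genotypes. Tnfsf15 rose by 6.87 ± 0.1185 in WT and 6.93 ± 0.132 in KO. Tnfsf4, the OX40 ligand, rose by 6.21 ± 0.1496 and 6.54 ± 0.1722, Tnfsf9, the 4-1BB ligand, by 4.29 ± 0.0799 and 4.53 ± 0.087, and Tnfsf8, the CD30 ligand, by 3.53 ± 0.1035 and 4.77 ± 0.1277. Tnfsf14 fell, at -2.16 and -1.94. The 4 that rose were each lower in KO than in WT after LPS, by -0.44 ± 0.0731 for Tnfsf15 (edgeR adjusted p = 3.32e-04), -0.41 ± 0.0874 for Tnfsf8 (0.00358), -0.36 ± 0.0942 for Tnfsf4 (0.013) and -0.32 ± 0.0637 for Tnfsf9 (0.00186). Without LPS Tnfsf8 was called lower in KO, at 1.102 against 3.437 CPM (-1.65 ± 0.1544, 1.49e-07), and Tnfsf9 was lower by -0.56 ± 0.1082 (5.25e-04).

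All 11 other checkpoint genes of macrophages were tested. With LPS 4 were called higher in WT and 5 in KO, led by Cd200 (3.66 ± 0.1223 and 4.05 ± 0.1321), Lgals9 (2.22 ± 0.0576 and 2.86 ± 0.0595) and Nectin2 (1.88 ± 0.0914 and 1.83 ± 0.0903). In both genotypes 3 were called lower, namely Cd300a (-3.04 and -3.37), Havcr2, which encodes the inhibitory receptor TIM-3 (-2.01 and -2.28), and Lair1 (-1.40 and -1.08). Between genotypes Havcr2 (-0.72 ± 0.097, edgeR adjusted p = 3.86e-05) and Cd300a (-0.41 ± 0.0567, 4.58e-05) were lower in KO after LPS, and Cd200 (-0.56 ± 0.1532, 0.00977) and Lgals9 (-0.52 ± 0.0572, 1.26e-06) were lower in KO without it.

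The 6 genes that act on the turnover of these proteins at the surface were also tested. Marchf1, a ubiquitin ligase that removes CD86 and MHC class II, rose by 2.47 ± 0.0668 in WT and 2.93 ± 0.0682 in KO with LPS. Cmtm6, a protein that keeps PD-L1 at the surface, rose by 0.90 ± 0.0578 and 1.01 ± 0.0579, and Adam17, a sheddase, by 0.97 ± 0.0559 and 1.29 ± 0.0562. Cmtm4 fell, at -1.09 in WT and -0.99 in KO. After LPS 4 of the 6 were higher in KO than in WT, among them Adam10 (0.31 ± 0.0867, edgeR adjusted p = 0.0217) and Adam17 (0.29 ± 0.0554, 0.00145). Without LPS Adam10 (-0.33 ± 0.0848, 0.00674) and Marchf1 (-0.23 ± 0.0647, 0.0137) were lower in KO. With the small RNA covariate the differences of Adam10 between genotypes changed sign in both treatments, as did that of Marchf1 without LPS.

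The genes most like each surface gene across the 12 libraries were found among 9077 protein-coding genes with a mean of at least 5 CPM, by Pearson's r of log2 CPM. These points share the LPS contrast, so high values are common among genes that rise with LPS and are given as a description. For Cd40 they were Sod2 and Pid1, for Cd274 Il1rn and Slc28a2 and for Cd86 Cav1 and Bst1. Apobec3 and Casp4 were nearest to Icam1, Malt1 and Ralgds to Slamf7, Syk and Crkl to Icosl, and Dpf2 and Eme1 to Pdcd1lg2. Their r was at least 0.987. The nearest patterns to the genes that lacked this rise were less close, at 0.953 for Txnl4a and 0.939 for Pbdc1 with Cd83, and at 0.899 for Mllt3 and 0.889 for Cep152 with Cd80.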

How the data were processed

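Libraries of total RNA were made by the authors with a stranded kit that depletes globin (TruSeq Stranded Total RNA Globin). They aligned reads to GRCm38 with HISAT2 2.1.0 and counted them with featureCounts 2.0.0. FastQC 0.11.9 and SAMtools 1.17 are also named in the submitters' processing notes. The deposited values are raw counts per gene. The annotation release, strand setting and treatment of multi-mapping reads are not given in the sources used here. Symbols and coordinates came from GENCODE release M21, which matched 48144 of 48526 identifiers, and the other 382 held 0.122% of counts. Marchf1 and Marchf8 were matched by their older symbols.

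Differences were tested in edgeR 4.0.16 by its quasi-likelihood F test (limma 3.58.1, R 4.3.3), with TMM scaling and filterByExpr (minimum count 10, minimum total 15), which kept 99.96% of counts. All 12 libraries entered 1 model of 4 group means without covariates, since the methods of the study name pairwise comparisons between conditions and no covariate. The common biological coefficient of variation was 0.0712, and intervals are 95%. DESeq2 1.42.0 was an alternative. The script was tested on simulated data. Figures used matplotlib 3.10.9 in Python 3.11.15. Library totals differed 1.39-fold, so depth limits chiefly the low genes, and without molecular identifiers a read need not be a separate molecule.

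The genes and lists were chosen with earlier results of these data known. Named genes are the 9, and from each related list the genes called in a contrast, up to the 3 largest in each direction, with the 2 largest that passed for the genotype contrasts and the interaction. For each of the 9 the 2 most similar genes are named, along with Tnf and marker genes. A gene of the adhesion list that this rule names is not reported here.

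Replicates carry a batch tag in the labels that matches their number, which pairs same-numbered libraries across groups. Over 18 such pairs the deviations from group means had r from -0.0631 to 0.0373, with 0 above 0.1. No replicate pair agreed within sampling noise (chi-square per degree of freedom at least 3.81).

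The alternatives comprised DESeq2, scaling by RLE or the upper quartile, 2 other filters, the replicate block, a fit on just the groups compared, a fit on protein-coding genes, the small structured RNA share as covariate, no fold minimum, and each library left out. Scaling by library totals in the tests was added after seeing the data.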

Additional observations from a re-analysis of the deposited data

Results flagged for a closer look

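The interaction term of the edgeR model, which tests whether the response to LPS differed between KO and WT, passed for 3 of the 9 surface genes, where 16.8% of all genes passed. The log2 difference of the KO response from the WT response was -0.35 for Cd40 (edgeR adjusted p = 0.00841), -0.65 for Cd83 (5.92e-06) and 0.22 for Cd274 (0.0354). The call of Cd274 was lost in 11 of 21 alternatives, and in 1 more its direction turned. For Cd83 and Cd40 the KO libraries started higher without LPS, and for Cd274 they started lower.

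Among the related genes the same term passed for 1 of 5 B7 genes, 2 of 9 SLAM genes, 6 of 18 adhesion genes, 1 of 11 CD40 signalling genes, 1 of 5 TNF superfamily costimulators, 4 of 11 other checkpoints and 3 of 6 turnover genes. Those with the largest interaction in each list, at most 2 a list, included Tnfrsf14 (0.34, edgeR adjusted p = 0.00568), Slamf1 (-0.97, 0.0392), Slamf9 (0.41, 0.00186), Pecam1 (-1.28, 0.00674) and Itgal (0.84, 2.07e-07). They also included Nfkb2 (-0.26, 0.043), Tnfsf8 (1.25, 9.64e-05), Lgals9 (0.64, 1.72e-05), Cd47 (0.37, 0.00173), Adam10 (0.63, 9.55e-04) and Marchf1 (0.47, 0.001). Of these Slamf1 and Pecam1 rest on few counts without LPS, 7 to 17 for Slamf1 and 22 to 40 for Pecam1. The interactions of Cd47, Adam10 and Marchf1 changed sign with the small RNA covariate. Itgal, Tnfsf8 and Lgals9 were lower in KO UT and closer to WT after LPS, at 639.2 against 643.2 CPM for Itgal, 29.93 against 39.6 for Tnfsf8 and 317.3 against 291.2 for Lgals9.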

How the results depend on the processing

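The 7 surface genes called higher with LPS in both genotypes stayed higher with an adjusted p below 0.05 in all 306 alternative results, with 1 log2 fold change at or below 1 (Icosl in WT with library totals, 0.73). These results include those of Pdcd1lg2, which entered the test only through its LPS libraries, so its rise is a description and no support. In many of these fits the library left out was not part of the contrast, so they are close to repeats. With no fold minimum the calls between genotypes went from 0 to 6 without LPS, 0 to 3 after LPS and 0 to 3 for the interaction. With the small RNA covariate the genes that passed went from 6 to 1 without LPS and from 3 to 1 for the interaction, and with protein-coding genes only from 3 to 5 after LPS. Leaving out 1 library gave 3 to 6 passing genes without LPS, with 3 without KO UT replicate 2, then 3 to 4 after LPS and 2 to 3 for the interaction. The replicate block left 6, 3 and 2 passing genes, and of the 45 results of the 9 genes it changed only the call of the Cd274 interaction (adjusted p = 0.0663).

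Of the results of the 9 genes that had passed, the direction turned with the small RNA covariate for the Cd274 interaction (-0.05) and Icosl without LPS (0.06). Of those that had not passed, the sign also changed for the interactions of Cd86 (-0.27), Icosl (-0.42) and Icam1 (-0.08) and for Slamf7 without LPS (0.09). Among related genes it turned without LPS for Cd28 (0.17), Adam10 (0.44) and Marchf1 (0.25), after LPS for Adam10 (-0.09), and in the interaction for Cd47 (-0.17), Adam10 (-0.53) and Marchf1 (-0.25). Of the results by which related genes were named, LPS contrasts included, 19 more no longer passed with this covariate and 71 still passed in the same direction. The differences of related genes given above therefore need not all hold with it. In WT with LPS, Cd83 was at -0.17 with upper-quartile scaling and -0.65 with library totals, and Cd80 at -0.62 with library totals. Library totals moved the median of all genes to -0.62 in WT and -0.56 in KO with LPS, and to -0.15 between genotypes without LPS. The cause of the changes under the covariate was not tested. The summed level of the 9 genes was 501.2 CPM in WT UT and 517.5 in KO UT with TMM, 538.2 and 547.3 with the upper quartile, but 514.9 and 505.5 with RLE and 647 and 601.5 with totals, so that the order of the genotypes turned. It was 5116.0 CPM in WT LPS and 4759.5 in KO LPS with TMM, 4840.0 and 4429.5 with the upper quartile, and 4166.4 and 3889.1 with totals. The fit on the compared groups only was not run for the interaction, which needs all 4 groups. Low counts limit Pdcd1lg2 in particular.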
